A study of Mus musculus with 16 samples.

Results

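The genes described here encode 10 neuropeptides of forebrain neurons: Npy, Sst, Vip, Cck, Penk, Pdyn, Tac1, Tac2, Crh and Cort. They were taken by name from the table of gene counts and are 10 of its 40481 genes, and all 10 passed the filter on low counts that left 14949 genes for testing. RNA was sequenced from the brain of 16 C57BL/6J mice (C57BL in the labels) bought at 18 months of age. After 2 weeks of acclimation, 8 of them received adropin(34-76), the predicted secreted stretch of the peptide encoded by Enho. It was given as 1 intraperitoneal injection a day of 90 nmol/kg in saline with 0.1% albumin. The other 8 received the saline diluent on the same schedule, and whether it held albumin is not stated plainly. All 16 were male, were injected for 2 weeks before behavioural tests and on through them, and were fasted for 6 h before tissue was taken. The paper describes them as selected from a larger number of mice in those tests. The mice carry no altered gene, and the piece of brain taken is named no further than brain. Each mouse is called here by the pair of numbers in its label, such as 5_4, whose meaning is not given.

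Neuropeptides are made as longer precursors that are cut by prohormone convertases, stored in dense-core vesicles and released on to receptors coupled to G proteins. In the cortex and hippocampus somatostatin, cortistatin, neuropeptide Y, vasoactive intestinal peptide and corticotropin-releasing hormone mark classes of GABAergic interneurons, and cholecystokinin is made by interneurons and by many pyramidal cells. In the striatum enkephalin marks projection neurons of the indirect pathway, and dynorphin and substance P mark those of the direct pathway.

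The tissue held forebrain and varied between mice. Totals ran from 35026503 to 70314050 counts per mouse. Markers of cortical excitatory neurons summed to between 2260 and 2931 CPM (counts scaled to the library total, adjusted by the trimmed mean of M-values, TMM) and those of striatal projection neurons to between 466 and 783. Within the striatal sum Adcy5 stood at 114 to 237 CPM, whereas the dopamine receptor genes Drd1 and Drd2 stood at 4.51 to 12.8 and 0.563 to 7.16. The 10 hypothalamic markers summed to at most 1.35 in 15 mice and to 3.67 in saline mouse 5_3. That mouse also had the highest level of Adora2a, the adenosine receptor of enkephalin neurons, at 21.0 CPM against at most 11.7 in the others. Saline mouse 8_3 stood apart by choroid plexus markers, which summed to 2485 CPM against at most 332, and by cerebellar markers, at 607 against at most 66.0. The 5 choroid plexus genes tested (Ttr, Kl, Sostdc1, Clic6 and Prlr) were all lower in adropin mice at an unadjusted p below 0.05 in edgeR, and each was highest in saline mouse 8_3, with Ttr at 2398 CPM there. The exact permutation p of the mean log2 level was 0.00808 for Kl and 0.00684 for Prlr, but 0.149 for Sostdc1, 0.190 for Clic6 and 0.536 for Ttr, whose median was higher in adropin (13.0 CPM) than in saline mice (11.8). Their mean z-score differed by -0.81 (two-sided exact permutation p = 0.0413, adjusted over 13 marker lists 0.537) and correlated over mice with Cck at 0.59, Npy at 0.58 and Crh at 0.52, and its part in the values of the neuropeptide genes was not tested. Other marker genes past an unadjusted p below 0.05 in edgeR, which 3.99% of all genes tested passed, included Rorb, Cux2, Cx3cr1 and Vwf, higher in adropin mice, and Calb2, Lct and Prkcd, lower. Vwf was highest in adropin mouse 1_3, at 78.4 CPM against at most 44.1 in the others. Calb2 and Prkcd were highest in saline mouse 8_3, at 87.6 and 14.2 CPM against at most 44.6 and 10.2 in the others. Car8 passed through mouse 8_3, at 91.7 CPM against at most 7.24 in the others, and its median was 5.81 CPM in adropin and 5.33 in saline mice (exact permutation p = 0.960). Mice also differed in how levels related to transcript length: the correlation across 14942 genes between a gene's deviation from its mean and the log2 length of its longest transcript ran from -0.45 in saline mouse 5_4 to 0.43 in adropin mouse 2_4. It averaged 0.115 ± 0.255 (SD) in the adropin mice and -0.0413 ± 0.272 in the saline mice (difference 0.156, two-sided exact permutation p = 0.246). In tissue of this kind, fewer cells of a type and less RNA per cell cannot be told apart.

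Per kilobase of exon, Sst had the highest level of the 10 genes, at 440 ± 102 CPM (SD over 16 mice), followed by Cck at 267 ± 41.6 and Npy at 156 ± 33.7. Penk followed at 30.2 ± 13.4, Cort at 15.4 ± 3.05, Vip at 10.5 ± 1.51, Tac2 at 8.25 ± 1.34 and Pdyn at 6.49 ± 1.25. The lowest levels were those of Crh, at 4.33 ± 1.05, and Tac1, at 2.86 ± 0.71. In this order the ranges of 1 SD around the mean overlapped for Penk and Cort and for each pair of neighbours from Vip down, and they did not overlap for Sst and Cck, Cck and Npy, Npy and Penk, or Cort and Vip. Even the least counted of the 10, Crh, had 156 to 411 reads per mouse, and Sst had 9895 to 18196. Penk varied most between mice. Its coefficient of variation was 44.2%, against 14.4% to 24.9% for the other 9, and within groups its SD on the log2 scale (0.53) exceeded that of 98.8% of the 501 genes nearest to it in level. Npy (95%) and Sst (92.6%) also ranked high in that order, and Tac2 (60.7%) lowest.

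Adropin was set against saline to ask whether the peptide changed the level of these transcripts. Of the 10, only Tac1 differed at an unadjusted p below 0.05, and it was lower in adropin mice. Over all genes tested, edgeR's quasi-likelihood test put 3.99% past that threshold, 1.86% in the higher and 2.13% in the lower direction. None of the 10 passed the study's cut-off of a 1.5-fold change with an unadjusted p below 0.05, which 0.421% of all genes tested (63) passed in the edgeR fit. The paper, which used limma, reported more genes past that cut-off. No gene of the 14949 had a Benjamini-Hochberg adjusted p below 0.05, with 596 at an unadjusted p below 0.05 and a smallest adjusted p of 0.387. The log2 fold change lay below 0 for 7 of the 10 genes and above 0 for 3, with a median of -0.096, beside 50.75% below 0 and a median of -0.0019 over all genes tested. With the transcript-length relation of each mouse or 1 surrogate variable as a covariate 4 of the 10 lay below 0, with medians of 0.01 and 0.014, so this count and the sign of the median did not hold. In all 10 the values of the groups overlapped. Each sample is taken as 1 mouse, and dates of extraction or sequencing were not given.

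**Figure D1:**
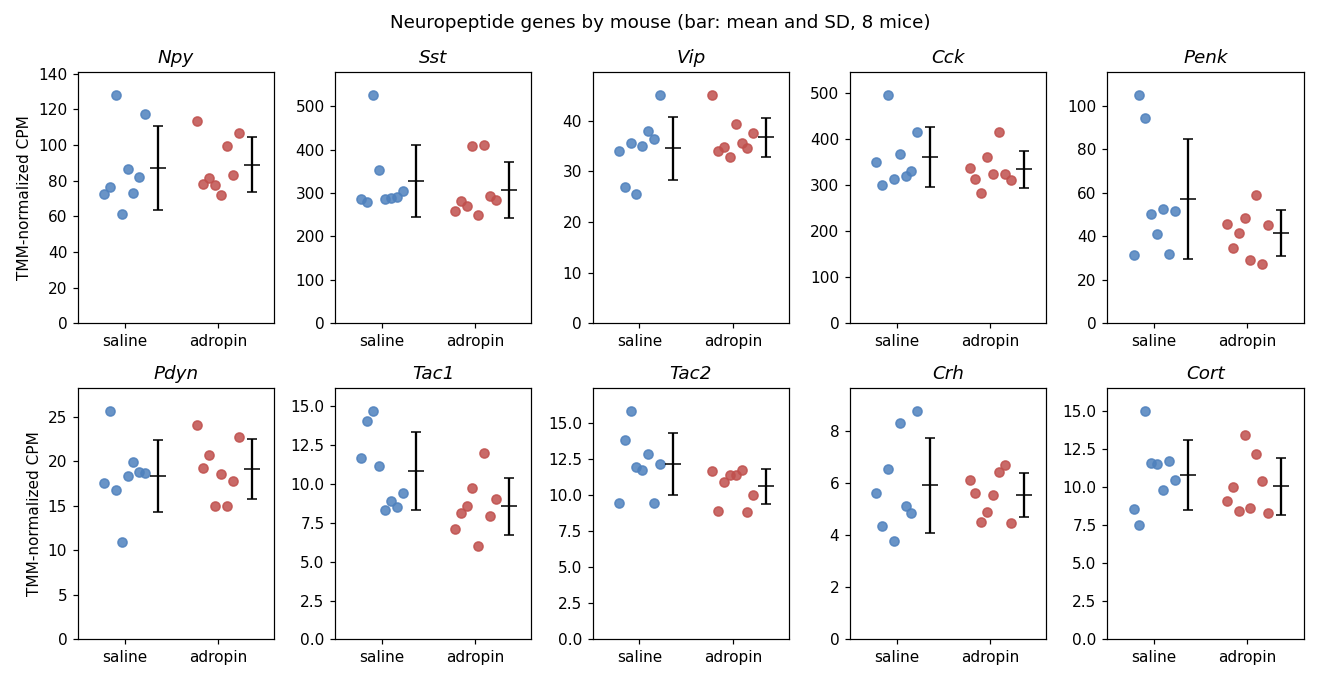
Level of each neuropeptide gene (TMM-normalized CPM, axes from 0) in 8 saline mice (blue) and 8 adropin mice (red), each point 1 mouse, with the mean and SD beside each group. Sst shows 2 mice in each group above the rest, and Penk shows 2 saline mice above all others.

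Tac1, the precursor of substance P and neurokinin A, lies on chromosome 6 (GRCm38, 7554879 to 7565834, plus strand). It ran from 5.99 (mouse 4_1) through a median of 8.34 to 12.0 CPM (4_3) in adropin mice and from 8.33 (6_2) through 10.3 to 14.7 CPM (5_4) in saline mice. The means were 8.57 ± 1.82 and 10.9 ± 2.49, a log2 fold change of -0.34 (SE 0.14, 95% interval -0.65 to -0.04), with an unadjusted p of 0.0291 and an adjusted p of 0.874 in edgeR. Of the adropin mice 7 of 8 lay below the saline median, and the highest saline values came from mice 5_4 and 5_3. The exact permutation test of the mean log2 level gave a two-sided p of 0.0507. Without saline mouse 5_3 and the choroid-rich 8_3 the edgeR p was 0.0658, and with the transcript-length relation as a covariate it was 0.0557. With the hippocampal marker score as a covariate the log2 fold change was -0.23 and the edgeR p 0.124, where that score, over 9 genes, differed by -0.45 between groups (exact permutation p = 0.141). Leaving out any 1 of mice 1_3, 4_1, 5_5, 5_3 and 5_4 also raised it above 0.05, to at most 0.0769.

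Tac2, the precursor of neurokinin B, ran from 8.84 (5_5) through a median of 11.1 to 11.8 CPM (4_3) in adropin mice and from 9.41 (8_1) through 12.0 to 15.8 CPM (5_4) in saline mice. All 8 adropin mice lay below the saline median, but 3 saline mice fell inside the adropin range, and the log2 fold change of -0.20 (SE 0.10) did not pass in edgeR (unadjusted p = 0.0742, adjusted p = 0.874). Its receptor gene Tacr3 stood at 1.28 ± 0.512 CPM in adropin mice and 2.01 ± 0.725 in saline mice, a log2 fold change of -0.65 (SE 0.25, unadjusted p = 0.0170, adjusted p = 0.874, edgeR), past the study's cut-off, which 0.308% of all genes passed in the lower direction. Tacr3 counts were low in every mouse, and its groups overlapped between 1.04 and 2.32 CPM.

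Penk, the enkephalin precursor, had the widest interval. It ran from 27.4 (5_5) through 43.5 to 58.7 CPM (4_3) in adropin mice and from 31.3 (2_3) through 51.0 to 105 CPM (5_3) in saline mice. The upper end of the saline group was set by 5_3 and 5_4, at 105 and 94.4 CPM, and the other 6 saline mice lay between 31.3 and 52.4, inside the adropin range. The log2 fold change was -0.47 (SE 0.24, unadjusted p = 0.0659, adjusted p = 0.874, edgeR), with a 95% interval from -0.97 to 0.03. Without mouse 5_3 it was -0.28 (unadjusted p = 0.215, edgeR), and without 5_3 and 8_3 it was also -0.28 (unadjusted p = 0.241, edgeR). Mouse 5_3 had the highest Adora2a level too, and with the striatal marker score, which includes Adora2a, as a covariate the log2 fold change of Penk was -0.50 (unadjusted p = 0.0371, adjusted p = 0.998, edgeR). Over 31 alternatives it stayed below 0, from -0.59 to -0.28, and its unadjusted p ran from 0.0274 to 0.241 in edgeR and the other tools, below 0.05 in 7 of them. Penk overlaps A830012C17Rik on the opposite strand, and the counting kept only unambiguous reads. Its strand setting is not given in the sources used here, so whether reads over both genes were left out or assigned by strand is not known.

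Pdyn, the dynorphin precursor, was at 19.2 ± 3.33 CPM in adropin mice (14.9 in 3_3, median 19.0, 24.1 in 1_3) and at 18.3 ± 4.04 in saline mice (10.9 in 6_1, median 18.5, 25.7 in 5_3). The groups overlapped over nearly their whole range, with a log2 fold change of 0.06 (SE 0.13, unadjusted p = 0.642, edgeR). The ratio of Penk to Tac1 reads within a library, which needs no scaling between libraries, differed by -0.04 on the log2 scale between groups (exact permutation p = 0.835).

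Of the interneuron peptides, none passed the unadjusted threshold. Sst ran from 250 (4_1) through 283 to 412 CPM (4_3) in adropin mice and from 280 (5_3) through 290 to 527 CPM (5_4) in saline mice, a log2 fold change of -0.09 (SE 0.14, unadjusted p = 0.513, edgeR). Most mice of either group lay between 250 and 306 CPM, and 4 lay above that, at 354 to 527 CPM, of which each group held 2 (adropin 3_3 and 4_3, saline 5_4 and 6_1). Cort, whose product cortistatin resembles somatostatin, was at 10.1 ± 1.89 CPM in adropin mice (8.28 in 7_4, median 9.56, 13.5 in 3_3) and at 10.8 ± 2.29 in saline mice (7.53 in 5_3, median 11.0, 15.0 in 5_4), a log2 fold change of -0.10 (SE 0.13, unadjusted p = 0.470, edgeR).

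Npy was at 88.9 ± 15.3 CPM in adropin mice (72.0 in 4_1, median 82.1, 113 in 1_3) and at 87.1 ± 23.3 in saline mice (61.2 in 6_1, median 79.3, 128 in 5_4), a log2 fold change of 0.03 (SE 0.14, unadjusted p = 0.835, edgeR). Vip was at 36.7 ± 3.93 CPM (32.8 in 3_3, median 35.1, 44.99 in 1_3) against 34.5 ± 6.2 (25.5 in 6_1, median 35.2, 45.1 in 8_3), with a log2 fold change of 0.09 (SE 0.10, unadjusted p = 0.388, edgeR). Both had a saline range wider than the adropin range on each side. Cck was at 334 ± 39.7 CPM (283 in 2_4, median 324.5, 415 in 4_3) against 362 ± 65.5 (300.5 in 5_3, median 340, 497 in 5_4), and its log2 fold change was -0.12 (SE 0.10, unadjusted p = 0.258, edgeR). Crh, which in the cortex is made by interneurons, was at 5.52 ± 0.845 CPM (4.47 in 7_4, median 5.57, 6.67 in 5_5) against 5.91 ± 1.82 (3.77 in 6_1, median 5.36, 8.75 in 8_3), a log2 fold change of -0.10 (SE 0.16, unadjusted p = 0.562, edgeR). Taken as folds of adropin over saline, the 95% interval ran from 0.511 to 1.02 for Penk, from 0.859 to 1.27 for Pdyn, from 0.800 to 1.07 for Cck and from 0.919 to 1.23 for Vip. The ratio of Sst to Npy reads differed by -0.14 (exact permutation p = 0.430) and that of Vip to Sst by 0.19 (exact permutation p = 0.358) on the log2 scale.

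**Figure D2:**
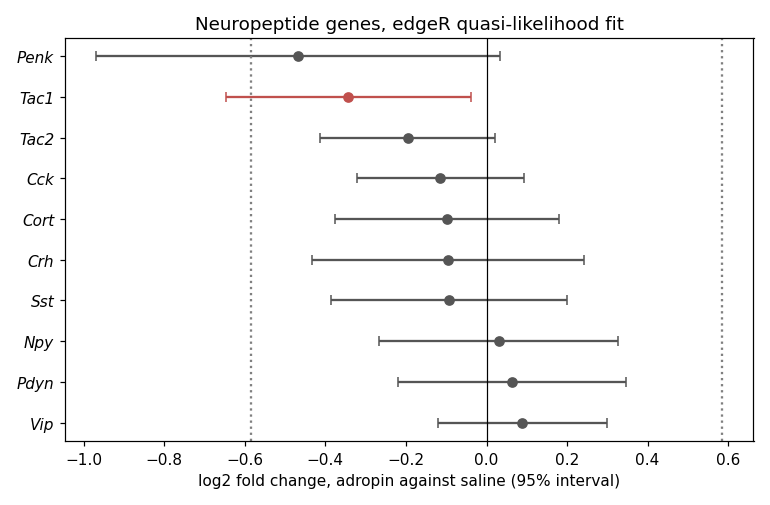
Log2 fold change of the 10 genes, adropin against saline, from edgeR, with 95% intervals. Dotted lines mark a 1.5-fold change in either direction, and only the interval of Tac1 (red), -0.65 to -0.04, lies wholly on one side of 0.

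The genes that release and receive the peptides were examined from lists of their own. Over all genes tested 1.86% were higher and 2.13% lower at an unadjusted p below 0.05. In lists this short, 1 gene past it was not read as a result about the list. Of 20 receptor genes 16 were tested, of which 0 were higher and 1 lower (Tacr3) at an unadjusted p below 0.05. The most abundant were Cckbr, the brain cholecystokinin receptor, at 85.1 ± 11.4 CPM in adropin and 80.1 ± 8.06 in saline mice, and Sstr3, at 37.6 ± 3.24 and 35.6 ± 4.40, with log2 fold changes of 0.09 and 0.08 and edgeR p-values of 0.295 and 0.297. Of 9 genes for prohormone processing 1 was higher and 0 were lower. It was Pcsk2, prohormone convertase 2, at 348 ± 28.3 against 314 ± 25.5 CPM (log2 fold change 0.15, SE 0.06, unadjusted p = 0.0266, adjusted p = 0.874, edgeR). The abundant Cpe and Pcsk1n, carboxypeptidase E and the convertase inhibitor proSAAS, had log2 fold changes of 0.02 and -0.13, with edgeR p-values of 0.776 and 0.230. Of 10 genes of dense-core vesicles 0 were higher and 1 was lower. It was Vgf, a granin-like secretory protein, at 333 ± 23.0 against 365 ± 30.9 CPM (log2 fold change -0.13, SE 0.06, unadjusted p = 0.0398, adjusted p = 0.874, edgeR). Chgb, which encodes chromogranin B, had a log2 fold change of -0.06 and an edgeR p-value of 0.235. Of 11 genes for a binding protein and peptidases 0 passed in either direction, and the log2 fold changes of the 2 most abundant, Npepps and Ece1, were -0.005 and -0.02, with edgeR p-values of 0.945 and 0.821.

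Of 29 other neuropeptide genes, of which Kiss1 was not analysed here, 10 passed the filter. Of those 10, 8 had log2 fold changes below 0, against 50.75% of all genes tested. Only Pnoc, the nociceptin precursor, passed an unadjusted p below 0.05, at 11.0 ± 0.776 CPM in adropin and 12.1 ± 0.973 in saline mice (log2 fold change -0.15, SE 0.06, unadjusted p = 0.0354, adjusted p = 0.874, edgeR). The more abundant Grp and Adcyap1, which encode gastrin-releasing peptide and PACAP, had log2 fold changes of -0.02 and -0.22 and edgeR p-values of 0.924 and 0.166. Median log2 fold changes were 0.062 for the receptors, 0.019 for processing, -0.028 for dense-core vesicles, 0.017 for the peptidases and -0.087 for the other peptides, beside -0.0019 for all genes tested.

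Covariation between mice was measured on log2 levels with each group's mean subtracted, over 16 mice and the 45 pairs of the 10 genes, with 100000 permutations of mice within groups. Of the 45 correlations 35 were positive, the median was 0.31, and 7 had a Benjamini-Hochberg adjusted permutation p below 0.05, all positive. The same counts over pairs of other genes were not computed, so these counts do not set the 10 genes apart from other genes. By rank 3 pairs passed, Penk with Tac2, Sst with Cort, and Cck with Crh (rho = 0.77, adjusted permutation p = 0.0228), of which Cck with Crh did not pass by r (r = 0.65, adjusted permutation p = 0.0740). In 34 pairs the sign was the same in the adropin and the saline mice. Since the Sst values fall into a lower set of 12 mice and a higher set of 4, the correlations of Sst are given also within the lower set, a choice made after the values were seen. A set cut by Sst itself spans a smaller range of Sst, which by itself can lower a correlation. With the transcript-length relation removed, 2 of the 45 pairs had an adjusted permutation p below 0.05.

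**Figure D3:**
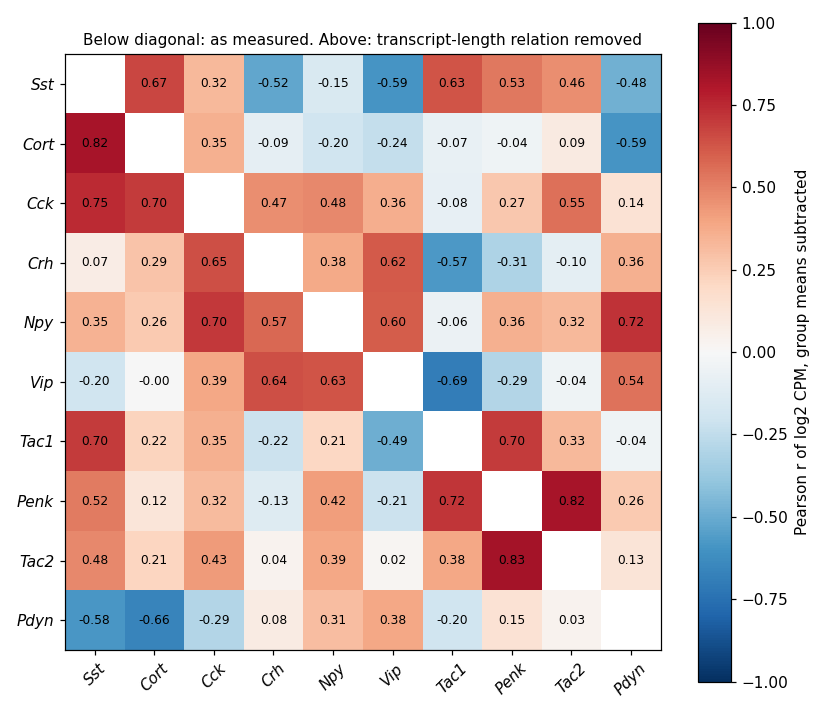
Pearson correlation of log2 CPM with group means subtracted for the 45 pairs of genes over 16 mice, as measured below the diagonal and with the transcript-length relation of each mouse removed above it. Penk and Tac2 correlate at 0.83 and 0.82, whereas Sst and Cck fall from 0.75 to 0.32.

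Penk and Tac2 had the highest correlation (r = 0.83, permutation p = 0.0004, adjusted p = 0.009, rho = 0.83, permutation p = 0.00041). The tachykinin Tac2 was the gene most like Penk among the 14948 other genes tested, and Penk the gene most like Tac2. The correlation was 0.78 without 5_3 and 5_4, 0.61 in adropin mice, 0.92 in saline mice and 0.82 with the transcript-length relation removed (adjusted permutation p = 0.0135). Mice 5_3 and 5_4 were highest in both genes, and 5_5, 2_1, 2_3 and 8_1 were low in both. Penk and Tac1 followed the same mice at r = 0.72 (adjusted permutation p = 0.0299, rho = 0.62, permutation p = 0.0150), with 0.54 without 5_3 and 5_4, 0.75 in adropin and 0.73 in saline mice, and 0.0937% of the other genes tested had a higher correlation with Penk than Tac1 had. Tac1 and Tac2 themselves correlated at 0.38 (permutation p = 0.165).

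Sst and Cort, whose products share the end of the peptide that binds somatostatin receptors, correlated at r = 0.82 (permutation p = 0.0001, adjusted p = 0.0045, rho = 0.76, permutation p = 0.00113). The value was 0.73 without 5_4 and 4_3, 0.91 in adropin and 0.76 in saline mice. Over the 12 mice of the lower Sst set it was 0.41 (permutation p = 0.114), and with the transcript-length relation removed it was 0.67 (adjusted permutation p = 0.0970). Leaving out 1 mouse at a time gave 0.75 to 0.86. Of the other genes tested, 2.30% had a higher correlation with Sst than Cort had. The Sst and Cort transcripts share at most 21 bases in an unbroken run, the longest shared run of the 45 pairs, so the pair is not one of near-identical copies. Over the 16 mice Sst and Cort correlated with the mean z-scores of several marker lists: at -0.66 and -0.75 with that of the other GABAergic interneuron markers, at -0.70 and -0.60 with endothelial cells, at -0.61 and -0.70 with the midbrain and hindbrain (only 2 genes), at -0.54 and -0.71 with astrocytes, and at 0.73 and 0.68 with the olfactory bulb (only 3 genes). The part of any of these in the relation of Sst and Cort was not tested.

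Promoters are shown for this pair and for Tac1, the gene with the lowest p against saline. Each is the RefSeq window from 250 bases before to 50 bases after the annotated start on GRCm38.p6, read 5' to 3' on the gene's strand, and capitals mark TGACG or its reverse complement CGTCA, the core letters of the cyclic AMP response element TGACGTCA. Sst lies at chr16:23890795-23891094 on the minus strand, Cort at chr4:149126714-149127013 on the minus strand and Tac1 at chr6:7554811-7555110 on the plus strand.
Sst: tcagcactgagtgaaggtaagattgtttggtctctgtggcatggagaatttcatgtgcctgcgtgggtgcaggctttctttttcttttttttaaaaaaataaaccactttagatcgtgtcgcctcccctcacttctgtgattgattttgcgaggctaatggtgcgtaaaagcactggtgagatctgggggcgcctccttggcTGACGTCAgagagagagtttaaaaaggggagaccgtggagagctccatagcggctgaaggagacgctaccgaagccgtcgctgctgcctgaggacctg
Cort: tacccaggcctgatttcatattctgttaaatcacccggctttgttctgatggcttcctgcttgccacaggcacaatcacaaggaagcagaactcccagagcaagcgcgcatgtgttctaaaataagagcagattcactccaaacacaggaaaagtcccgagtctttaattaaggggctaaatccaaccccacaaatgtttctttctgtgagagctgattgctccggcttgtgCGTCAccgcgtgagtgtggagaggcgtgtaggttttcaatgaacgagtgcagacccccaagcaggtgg
Tac1: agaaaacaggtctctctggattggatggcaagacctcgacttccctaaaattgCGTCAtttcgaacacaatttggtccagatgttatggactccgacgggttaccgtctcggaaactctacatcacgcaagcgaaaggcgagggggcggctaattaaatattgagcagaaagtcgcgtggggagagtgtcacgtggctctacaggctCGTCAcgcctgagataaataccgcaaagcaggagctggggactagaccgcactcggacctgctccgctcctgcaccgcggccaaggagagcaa

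The Sst window held the whole element TGACGTCA, beginning at -48 from the start, which 1.79% of the 32851 windows in the reference table also held, and its capitals are 2 overlapping cores. The Cort window held a core at -18, and the Tac1 window held cores at -197 and -43. By GENCODE, the source of the gene positions given here, the RefSeq starts of Sst and Tac1 lie inside the genes. The Sst element at -48 and the Tac1 core at -43 lie inside them too. A core was found in 5 of the 8 genes with a window (Cck at -47 and Vip at -79 beside these), against 20.8% of all windows. Npy, Pdyn and Tac2 held none of these letters. The box TATAAA, searched on both strands, was found in Vip alone of the 8, against 13.6% of windows, and the AP-1 motif TGANTCA in 0 of them, against 7.81%. Penk and Crh had no window in the table. These are matches of letters and not measured sites.

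Cck correlated with Sst at r = 0.75 (adjusted permutation p = 0.0331) and with Npy at 0.70 (adjusted permutation p = 0.0379), but the ranks gave less, with rho = 0.43 (permutation p = 0.0965) and 0.51 (permutation p = 0.0637). Leaving out the 2 most extreme mice by Sst (5_4 and 4_3) or by Npy (5_4 and 8_3) lowered the values to 0.29 and 0.43, and leaving out 1 mouse at a time gave 0.54 to 0.82 for Sst and Cck and 0.54 to 0.77 for Npy and Cck. Sst and Cck correlated at 0.79 in adropin and 0.73 in saline mice, whereas Npy and Cck correlated at 0.26 in adropin mice (rho = 0, exact permutation p of r = 0.551) and at 0.91 in saline mice (exact permutation p = 0.00270), a difference that was not tested. Of the other genes tested, 6.28% had a higher correlation with Sst than Cck had, and 3.18% had a higher one with Npy. In the lower Sst set Sst and Cck correlated at 0.24. Cck was highest in 5_4, 8_3 and 4_3, the 3 mice with the lowest transcript-length relation (-0.45, -0.35 and -0.35), and correlated with that relation at -0.91 over 16 mice. With it removed, Sst and Cck correlated at 0.32 and Npy and Cck at 0.48. The same relation correlated at -0.72 with Sst, -0.65 with Cort, -0.60 with Npy and -0.53 with Crh, at -0.42 with Tac1, at -0.27 with Vip, at -0.23 with both Penk and Tac2, and at 0.38 with Pdyn. These are descriptions over the same libraries, and a part of transcript length or RNA state in the covariation was not tested further.

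The other pairs with an adjusted permutation p below 0.05 were Cck with Cort (r = 0.70, and 0.35 with the transcript-length relation removed) and Sst with Tac1 (r = 0.70, and 0.24 in the lower Sst set). Of the other genes tested, 13.6% had a higher correlation with Cck than Cort had, and 9.06% a higher one with Sst than Tac1 had. The lowest correlations were those of Pdyn, with Cort at -0.66 (permutation p = 0.0100, adjusted p = 0.0562, rho = -0.68, permutation p = 0.00717) and with Sst at -0.58 (permutation p = 0.0404, adjusted p = 0.143, rho = -0.67, permutation p = 0.00792). Neither passed the adjusted threshold over the 45 pairs. In the lower Sst set Sst and Pdyn correlated at -0.30. Leaving out the 2 most extreme mice by Pdyn (6_1 and 5_3) gave -0.69 for Pdyn with Cort. Leaving out the 2 most extreme by Sst (5_4 and 4_3) gave -0.68 for Pdyn with Sst.

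Penk and Pdyn, the opioid precursors of the indirect and the direct striatal pathway, correlated at 0.15 (permutation p = 0.644), a value whose sign turned in adropin mice alone (-0.16), without 5_3 and 8_3 (-0.18) and leaving out 1 mouse at a time (-0.16 to 0.27). Mouse 5_3 was highest in both, while mice 5_4 and 4_3 had high Penk and low Pdyn. Over the 16 mice the mean z-score of the 12 striatal markers correlated with Pdyn at 0.59, with Penk at 0.44, with Tac2 at 0.27 and with Tac1 at 0.17. Pdyn correlated as much with the scores of cortical excitatory neurons (0.62), the 2 midbrain and hindbrain genes (0.58), endothelial cells (0.58) and oligodendrocytes (0.52), and the part of any tissue in these values was not tested. With the transcript-length relation removed, Npy and Pdyn were, beside Penk and Tac2, the other pair with an adjusted permutation p below 0.05 (r = 0.72, adjusted p = 0.0135), against r = 0.31 as measured (adjusted permutation p = 0.519), and this pair was singled out after its value was seen.

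**Figure D4:**
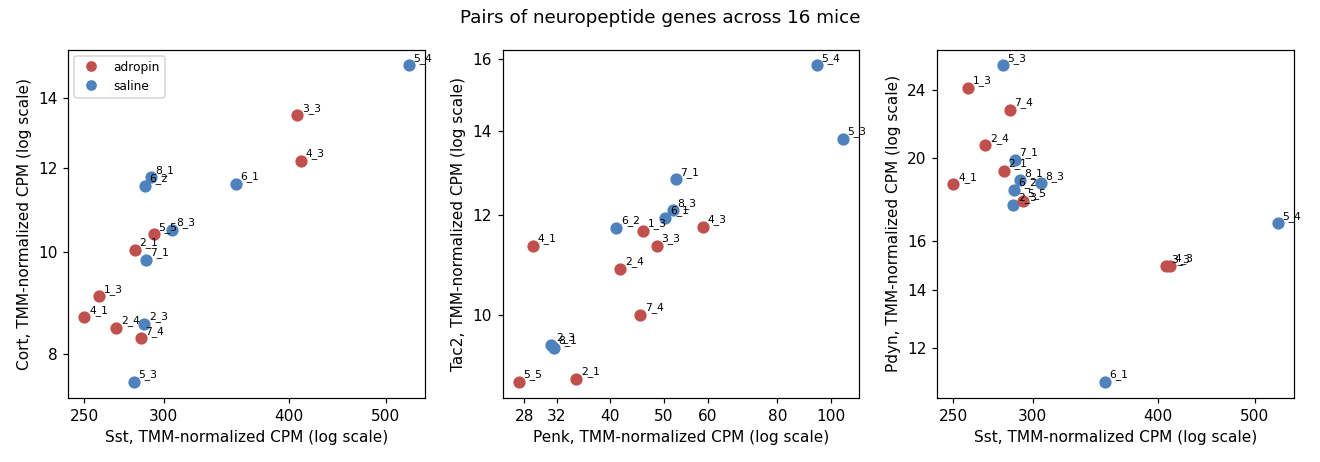
Levels of 3 pairs of genes by mouse (TMM-normalized CPM, log axes), adropin in red and saline in blue, each point 1 mouse. In the Sst and Cort plot mice 5_4, 4_3, 3_3 and 6_1 lie to the right of the other 12, and in the Sst and Pdyn plot the same 4 lie below them.

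Outside the 10, the genes most like each were named by their correlation over the 16 mice. Sst had Ctxn1 (0.96), Tmem158 (0.96) and Tmem159 (0.96), and in the lower Sst set these were 0.089, 0.49 and 0.30. Cck had Timm13 (0.98), Ndufa11 (0.98) and Tomm40 (0.97), genes of mitochondrial import and of respiratory complex I. Npy had Nrgn (0.93), which encodes the postsynaptic protein neurogranin, Shld1 (0.92) and Chn1 (0.91). For Pdyn they were Rcan2 (0.89), Rph3a (0.88) and Kctd1 (0.88), and for Cort Ube2b (0.91), Zfp40 (0.90) and Rmnd1 (0.90). Vip had Proser2 (0.92), Tmem218 (0.88) and Mmrn2 (0.87), and Crh had Mrpl58 (0.88), Rpl23a-ps3 (0.86) and Cnn2 (0.84). For Tac1 they were Ttc34 (0.88), 4930525G20Rik (0.85) and Cotl1 (0.83). After each other, Penk had Cstad (0.78) and Rpap2 (0.78), and Tac2 had Smim18 (0.80) and Mycbp2 (0.79).

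**Figure D5:**
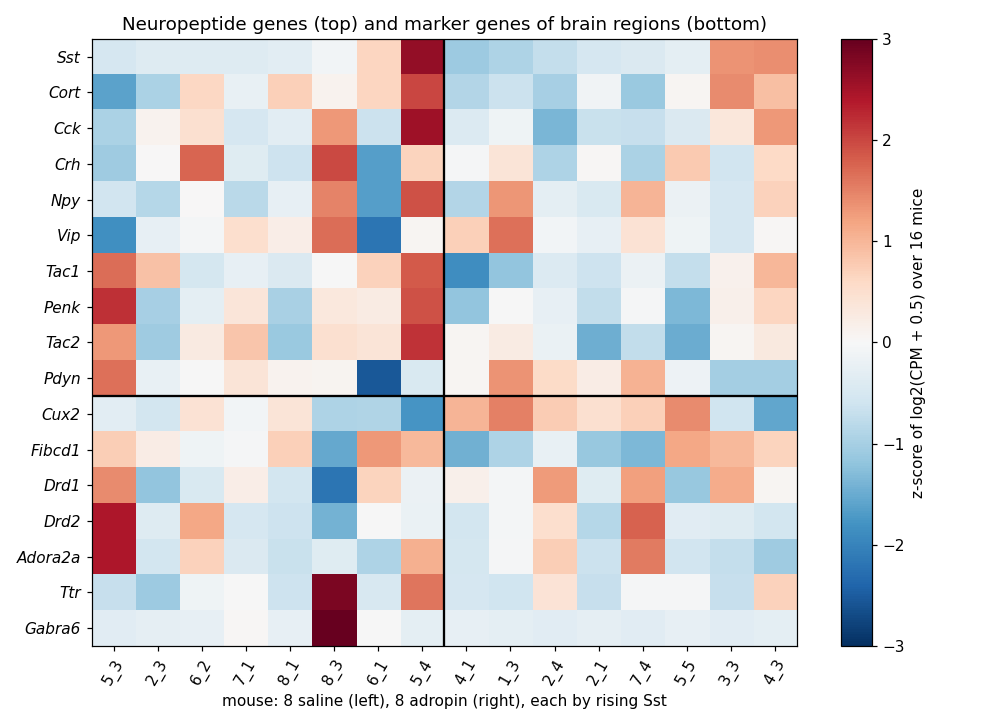
Z-scores over 16 mice of log2(CPM + 0.5) for the 10 neuropeptide genes (top) and 7 marker genes (bottom), with saline mice left and adropin mice right, each by rising Sst. Penk and Tac1 are high in 5_3, the mouse with the highest Drd2 and Adora2a, and Sst is high in 5_4, 6_1, 3_3 and 4_3.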

How the data were processed

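Poly-A-selected RNA from 16 mouse brains was sequenced. Per the labels, the authors aligned reads with STAR and counted them per gene with featureCounts, and the paper names the primary assembly of Ensembl release 76 as the alignment target. The annotation used for counting is not given in the sources used here. The deposited values used here are these whole-number read counts. The strand setting of the counting is not given in the sources used here. A deposited table of scaled values of the same counts was not used.

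From the 40757 listed entries 276 repeats were dropped, and 355 ribosomal RNA genes were left out of testing. A gene was kept where 7 or more of the 16 mice had over 1 CPM. Fold changes came from edgeR 4.0.16 (quasi-likelihood test, TMM size factors, all 16 mice, no covariate) with Benjamini-Hochberg adjustment over all 14949 genes. limma 3.58.1 (voom), DESeq2 1.42.0 and a surrogate variable (sva 3.50.0) were alternatives. Correlations used log2 CPM (prior count 2) with group means subtracted. The fits and the permutation tests were tested on simulated data.

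The 10 genes, the pathway and marker lists were chosen with earlier results of these data known. Genes named beyond the 10 are those of a list with an unadjusted p below 0.05 and its 2 most abundant genes, the 3 genes most correlated with each of the 10, and the 5 highest and 2 lowest pairs. Marker lists are given by sums and scores and by genes of theirs below that p. Adora2a, Adcy5, Drd1, Drd2 and the other pairs were added after their values were seen. Kiss1 was not analysed here, and 2 marker genes are not reported here. Positions and exon lengths came from GENCODE M21 (GRCm38), and promoters from RefSeq (GRCm38.p6), which had 9 windows for 8 of the 10 genes. Totals of 35026503 to 70314050 counts per mouse set the counting precision.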

Additional observations from a re-analysis of the deposited data

Results flagged for a closer look

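The Sst level of saline mouse 5_4, 526.8 CPM, lay far above the other 7 saline mice, the nearest being 6_1 at 354 CPM, and this gap took up 0.70 of the range of the group. It was the only such value in 26 groups of values examined, where 1.3 would be found by chance. Mouse 5_4 also had the lowest transcript-length relation, at -0.45, and the highest Npy, Cck, Tac1, Tac2 and Cort levels of its group, and the part of that relation in the Sst value was not tested. Without this mouse the log2 fold change of Sst was 0.04 in edgeR.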

How the results depend on the processing

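The count of neuropeptide genes with an unadjusted p below 0.05, 1 in edgeR as reported, was 2 with no filter on low counts and 2 with the striatal score as a covariate. The share of all genes tested past that p was 3.99% in the fit as reported. It was not taken in the alternatives, so shifts of the count between fits are not results about these 10 genes alone. It was 0 with 1 surrogate variable, with the cortical score, and, in alternatives chosen after seeing the data, with the hippocampal score, with the transcript-length relation and without mice 5_3 and 8_3. Leaving out 1 mouse at a time gave 0 to 3, with 0 without 1_3, 4_1, 5_5, 5_3 or 5_4 and 3 without 2_3 or 8_1. Tac1 stayed lower in all 31 alternatives, with log2 fold changes of -0.48 to -0.23, and kept an unadjusted p below 0.05 in 19 of them (p from 0.00699 to 0.124). Penk stayed lower in all 31 and passed in 7, and Tac2 stayed lower in all 31 and passed in 2. Adjusted p-values of the 10 genes in these alternatives were 0.511 or higher.

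The numbers of the mouse labels may or may not pair mice. Mice of the 2 groups that share a first number correlated at -0.27 to 0.22 in their deviations (2 of 5 pairs over 0.1), and those that share a second number at -0.56 to 0.30 (7 of 17 over 0.1), so the numbers were not taken as pairs. A replicate block on the first number gave 0 genes and on the second number 2.

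Directions of fold changes near 0 turned. Npy was -0.0152 with the second-number block, -0.0281 with the hippocampal score and -0.0321 to 0.130 leaving out 1 mouse. Sst was 0.0523 with 1 surrogate variable, 0.0309 with the transcript-length relation and -0.159 to 0.0377 leaving out 1 mouse. Pdyn was -0.0288, -0.0145, -0.00288 and -0.0419 with the surrogate variable, the length relation, the striatal and the cortical score, and -0.0195 to 0.160 leaving out 1 mouse. Crh was 0.00854 with the first-number block, 0.0192 with the surrogate variable, 0.0467 with the length relation and -0.169 to 0.00996 leaving out 1 mouse. Leaving out 1 mouse gave -0.158 to -0.0364 for Cck, the latter without 5_4, -0.161 to -0.0155 for Cort, the latter also without 5_4, and 0.0340 to 0.153 for Vip, without 6_1 and 8_3, and Vip was 0.00609 with the hippocampal score. Cck was 0.00804 and 0.00694, and Cort 0.0284 and 0.0125, with the surrogate variable and the length relation. The Penk to Tac1 ratio was -0.165 to 0.0455 leaving out 1 mouse, and the astrocyte score -0.0731 with library size alone. The cause was not tested.

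Of the 45 pairs 14 had an unadjusted permutation p below 0.05 over 16 mice, 7 in adropin mice alone and 6 in saline mice alone, where each group has 8 mice. Leaving out 1 mouse at a time gave 10 to 20, with 20 without saline mouse 5_3, and the remaining alternatives gave 12 to 16.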
